A study of Mus musculus with 8 samples.

Results

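Glycolysis, glucose transport and the entry of pyruvate into mitochondria were followed gene by gene in regulatory T (Treg) cells with and without the calcium sensors STIM1 and STIM2. The 32 genes were taken by symbol: the glucose transporters, the enzymes from hexokinase to pyruvate kinase, the lactate enzymes and exporters, the kinases and subunits of the pyruvate dehydrogenase complex, and Hif1a, a transcription factor gene. All 32 were found among the 52459 genes listed, and all 32 were among the 15419 tested, whose values averaged 10 normalized counts or more. RNA was sequenced in 8 libraries, 2 for each of 4 groups. Treg cells were either WT or Stim1/2-deficient, called DKO, and were left unstimulated or kept for 16 h on plate-bound anti-CD3/CD28 antibodies at 1 µg/ml, from mice of strain C57BL/6. The DKO genotype is written in the labels as Stim1 fl/f, with Stim2 fl/fll and Foxp3-YFPcre, and the cells as Foxp3+CD25+. The methods describe both genotypes as CD4+CD25hi cells sorted from pooled spleens and lymph nodes of female heterozygous mice, WT cells without and DKO cells with YFPcre. The Cre is thus driven from the Foxp3 locus, and the genotype cannot be told apart from the Foxp3-YFPcre allele itself. Unstimulated libraries were run in 1 lane and stimulated libraries in another, so that stimulation and lane cannot be told apart, while each lane held both genotypes.

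Glycolysis splits glucose into pyruvate. Lactate dehydrogenase turns pyruvate into lactate, which leaves the cell through monocarboxylate transporters, and the pyruvate dehydrogenase complex instead feeds it to the mitochondrial citric acid cycle. Pyruvate dehydrogenase kinases switch that complex off, and the factor encoded by Hif1a is known to turn on many glycolytic genes. Activated T cells take up more glucose and secrete lactate, and Treg cells are known for relying comparatively more on mitochondrial oxidation.

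Values are normalized counts, the authors' read counts per gene divided by 1 size factor per library, and libraries held 11851853 to 16306540 reads on genes. In each library 1 read was worth 0.759 to 1.48 normalized counts. Differences are log2 fold changes on the scale log2(normalized count + 1) with their standard error (SE), 2 libraries against 2. A gene was called at a limma adjusted p under 0.05 together with a change of over 1.5-fold. Stim1 and Stim2 were still counted in every library labelled DKO. Stim1 was at 1139 and 1377 normalized counts in unstimulated WT and higher, at 1538 and 1868, in unstimulated DKO libraries, and lower in DKO after stimulation, at 645 and 673 against 552 and 642. Stim2 was lower in both unstimulated DKO libraries, at 906 and 908 against 904 and 744, and overlapped after stimulation, at 665 and 782 against 620.2 and 696. Counts per gene do not separate deleted exons from the rest, so they do not check the label. The paper reports loss of Stim1 and Stim2 transcripts by RT-PCR in Treg cells of male mice with this deletion. It also reports that YFP-positive Treg cells of female heterozygous mice lacked calcium influx after store depletion. The 6 markers of T and Treg cells were present in every library, with sums of 56003 and 51796 normalized counts in unstimulated WT, 34856 and 31571 in unstimulated DKO, 78240 and 91802 in stimulated WT and 59794 and 77065 in stimulated DKO libraries. The DKO libraries were thus the lower ones in both states. Without stimulation, Ikzf2 was at 18953 and 19707 in WT and at 8398 and 9233 in DKO libraries. Cd3e was nearer, at 3424 and 3294 against 3042 and 3156. Cd3d, Foxp3 and Il2ra were also lower in both DKO libraries, and Cd4 overlapped. Mitochondrially encoded genes took 28.2% and 28.3% of the reads in unstimulated WT libraries, 29.5% in unstimulated DKO library 1 and 20.0% in DKO library 2, and 15.1% to 19.8% after stimulation. Unstimulated DKO library 1 stood apart: 10 markers of macrophages and monocytes summed to 10135 normalized counts there, to 1597 in DKO library 2 and to 259 and 301 in the unstimulated WT libraries, where C1qa and C1qc were at 0. B cell markers summed to 13135 in that library against 3729 to 6598 in the other unstimulated ones. The 6 proliferation markers moved with genotype, with sums of 32330 and 26211 in unstimulated WT and 9402 and 4188 in unstimulated DKO libraries, and of 19897 and 17338 against 9121 and 4199 after stimulation. The part of these differences in the results was not tested. In bulk RNA, fewer cells of a type and less RNA per cell cannot be told apart. Each library pooled several mice, so p-values measure the spread between pools.

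In unstimulated Treg cells, 5 of the 32 genes were lower in DKO than in WT cells and 1 was higher. The 5 lower ones were Hk2, Aldoa, Tpi1, Pgk1 and Pkm, enzymes from the first to the last step of glycolysis, and the higher one was Pdk1, a kinase that inhibits pyruvate dehydrogenase. The background over the whole table was 3.35% of genes called lower and 1.38% called higher. The median log2 fold change was -0.37 over the 32 genes and -0.01 over all genes tested, and 25 of the 32 were below 0. In 17 of the 32 genes both DKO libraries lay below both WT libraries and in 3 both lay above, while 27.1% and 26.5% of all genes did so. Rescaling to equal totals or equal upper quartiles raised the median of all genes to 0.11 and 0.15, the median of the 32 genes was then -0.25 and -0.21, and 3 of them were called lower and 1 higher. Over all genes, the split was 517 lower and 213 higher here, 353 and 241 at equal totals, and 332 and 286 at equal upper quartiles.

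These calls rested on few libraries. With only the 4 unstimulated libraries in the fit, Hk2 alone was called. Without WT library 3 or without WT library 4, none of the 6 genes was called and limma called 8 and 23 genes in all, while the 6 log2 fold changes kept their directions. DKO library 1 had the highest sum of macrophage markers. Library 2 had 1597 against 259 and 301 in the WT libraries, so leaving out library 1 did not remove this difference. Without DKO library 1, the log2 fold change was -1.44 for Hk2, -1.15 for Aldoa and -1.70 for Tpi1. It was -1.41 for Pgk1, -0.85 for Pkm and 0.95 for Pdk1, and Pkm lost its call. Without DKO library 2, the values were -1.83, -0.76, -1.50, -1.34, -1.10 and 1.40 in the same order. Aldoa and Tpi1 then lost their calls.

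**Figure D1:**
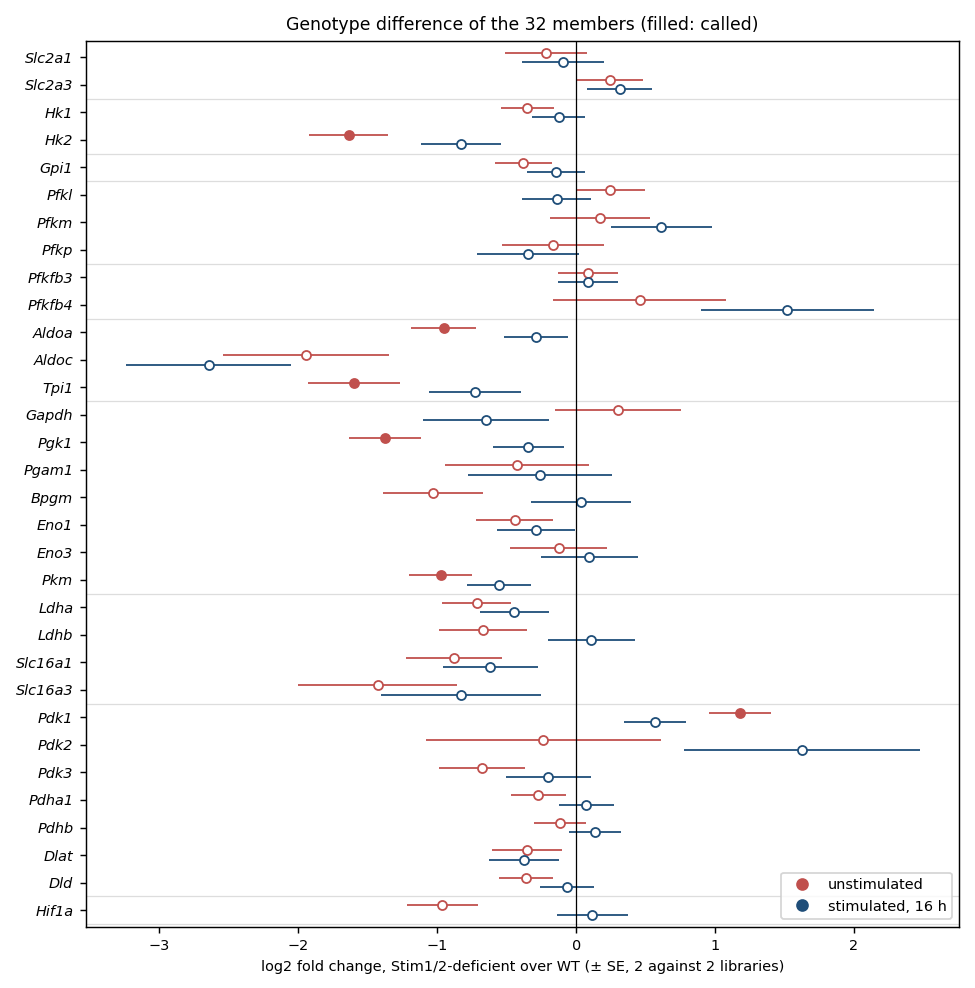
Log2 fold change of DKO over WT cells (horizontal axis, ± SE) for each of the 32 genes in order of the pathway, unstimulated in red and stimulated in blue, with filled points for called genes. In unstimulated cells Hk2, Aldoa, Tpi1, Pgk1 and Pkm lie below 0 and Pdk1 above it as filled points, and no stimulated point is filled.

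After 16 h of stimulation none of the 32 genes was called between the genotypes. The background was 0.11% of genes called lower and 0.162% called higher. At an unadjusted p under 0.05 with over 1.5-fold, limma gave 2 of the 32 lower (Aldoc and Hk2) and 1 higher (Pfkfb4), while 6.95% of all genes were lower and 5.6% higher at that threshold. edgeR called 0 of the 32 and DESeq2 called 1, Aldoc. The median log2 fold change of the 32 genes was -0.14 against 0.02 over all genes. Both DKO libraries lay below both WT libraries in 13 of the 32 genes and above in 4, compared with 23.1% and 24.3% of all genes. Without stimulated DKO library 1, limma called Aldoc, Hk2 and Pfkfb4 and 762 genes in all, and without any other stimulated library it called none of the 32 and at most 1 gene in all.

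With stimulation of WT cells, Aldoa, Tpi1, Eno1, Ldha and Dlat rose and the glucose transporter gene Slc2a3 fell, 5 up and 1 down of 32. In DKO cells 9 rose, namely those 5 together with Hk2, Pgk1, Pgam1 and Hif1a, and 2 fell, Slc2a3 and Pfkl. Over all genes tested, 10.2% were called higher and 13.1% lower in WT cells, and 13.0% higher and 12.0% lower in DKO cells. The median log2 fold change of the 32 genes was -0.09 in WT cells and 0.11 in DKO cells, against 0.01 and -0.03 over all genes. The 2 stimulation comparisons share no libraries with each other, but each shares its unstimulated libraries with the genotype comparison above.

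The stimulation results depended on scaling, because the normalized totals were 15559047 to 17597278 before and 12113314 to 12497477 after stimulation. Equal totals moved the median of all genes to 0.52 in WT and 0.35 in DKO cells. The split over all genes was then 974 lower and 4258 higher in place of 2013 and 1580 in WT cells, and 1077 and 3791 in place of 1855 and 1997 in DKO cells. Of the 32 genes, 1 was then lower and 9 higher in WT cells, and 1 lower and 13 higher in DKO cells. Slc2a3 fell in both genotypes under every alternative, including each library left out. In WT cells, Aldoa lost its call without unstimulated library 4, and Eno1 lost it without 3 of the 4 libraries. Dlat, Ldha and Tpi1 lost it whichever of the 4 was left out. Pdk2 gained a call without stimulated library 1, where stimulated library 2 held 5 reads of it. In DKO cells Aldoa, Tpi1, Eno1 and Ldha were called without any 1 of the 4 libraries, and 7 to 12 of the 32 genes were called.

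**Figure D2:**
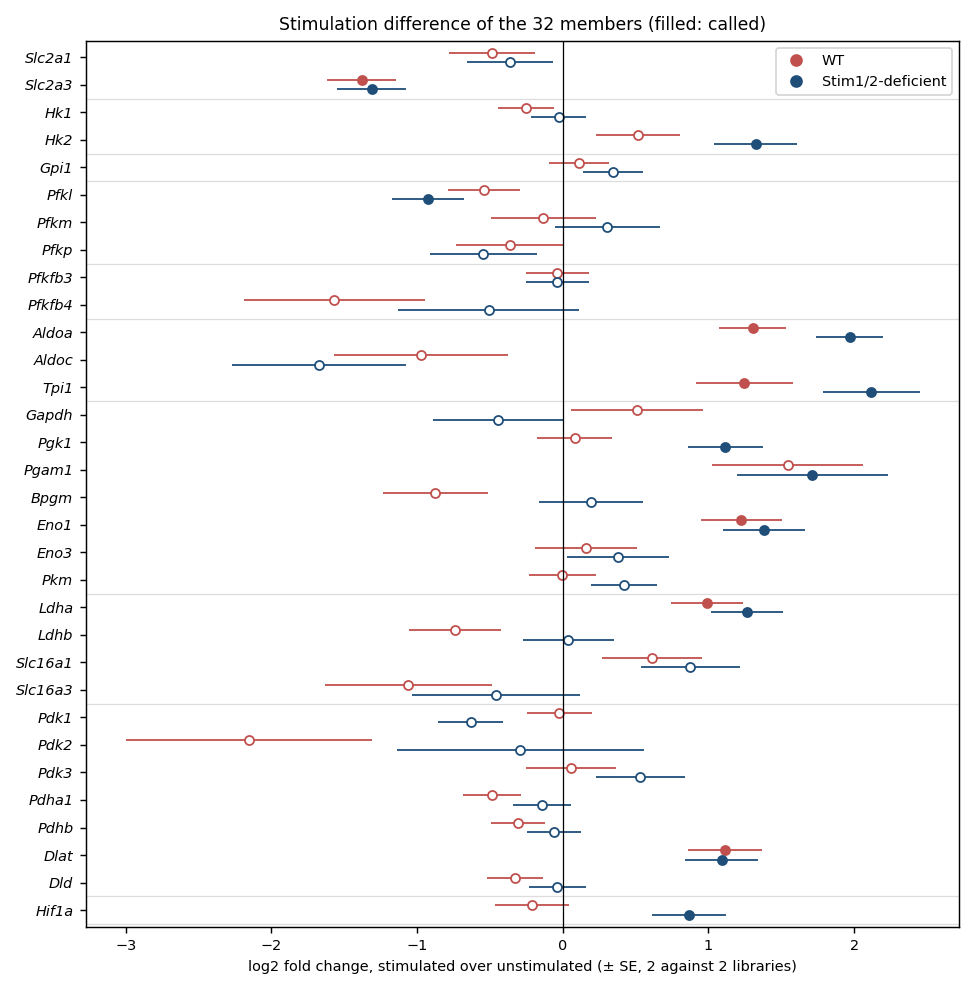
Log2 fold change of stimulated over unstimulated cells (horizontal axis, ± SE) for the 32 genes in order of the pathway, WT in red and DKO in blue, with filled points for called genes. Aldoa, Tpi1, Eno1, Ldha and Dlat are filled above 0 and Slc2a3 below 0 in both genotypes, while Hk2, Pgk1, Pgam1 and Hif1a are filled above 0 and Pfkl below 0 in DKO cells.

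The difference between the stimulation effects of the 2 genotypes was tested as an interaction. limma called 0.0% of all genes as negative and 0.0% as positive, and 0 of the 32. At an unadjusted p under 0.05 with over 1.5-fold, 3.52% of all genes were negative and 4.57% positive, among them 2 of the 32, both positive: Hif1a and Pgk1. edgeR called 0 genes, and DESeq2 called 50 genes and none of the 32. The interaction was above 0 in 26 of the 32 genes with a median of 0.27, against 0.05 over all genes, and it fell to 0.14 at equal totals and 0.11 at equal upper quartiles, where the median of all genes was -0.08 and -0.10. A gene called in 1 genotype and not in the other is therefore not shown to differ between them. Without unstimulated DKO library 2, limma called 196 genes and Hif1a among the 32.

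Many glycolytic genes have near-identical copies elsewhere in the mouse genome, and reads that match more than 1 such copy equally well cannot be placed at 1 position. Every 50-base window of the coding transcripts' exons was therefore looked up in the NCBIM37 genome with up to 2 mismatches. The share of windows that matched 1 place was under 50% in 11 of the 32 genes and over 90% in 19. It was lowest in Pgam1 (5.63%), Pgk1 (9.25%), Pdhb (15.0%), Pkm (16.9%), Gapdh (17.1%) and Gpi1 (17.3%), and it was 37.3% in Ldhb, 40.8% in Tpi1, 42.2% in Ldha, 46.4% in Eno1 and 46.9% in Aldoa. Gapdh, which most cells express strongly, had only 106 to 324 normalized counts, and Pgam1 had 9.44 to 44.4. Of the 5 genes lower in unstimulated DKO cells, Aldoa, Tpi1, Pgk1 and Pkm were in this class of 11. Hk2 (99.98%) and Pdk1 (98.0%) were not. The values of Aldoa, Tpi1, Pgk1 and Pkm are thus uncertain, and the effect on their fold changes was not tested. In unstimulated cells the median genotype difference was -0.67 over the 11 genes and -0.24 over the 19. In WT cells the stimulation median was 0.51 over the 11 and -0.33 over the 19, and in DKO cells it was 1.12 and -0.04. The 11 held most enzymes from aldolase to lactate dehydrogenase, with Gpi1 and Pdhb from elsewhere. The 19 held the transporters, hexokinases, phosphofructokinases and Hif1a, but also Aldoc, Bpgm, Eno3, Dlat, Dld, Pdk1 and Pdk2. Uniqueness and place in the pathway thus overlapped in large part, and their parts in these medians were not tested.

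**Figure D3:**
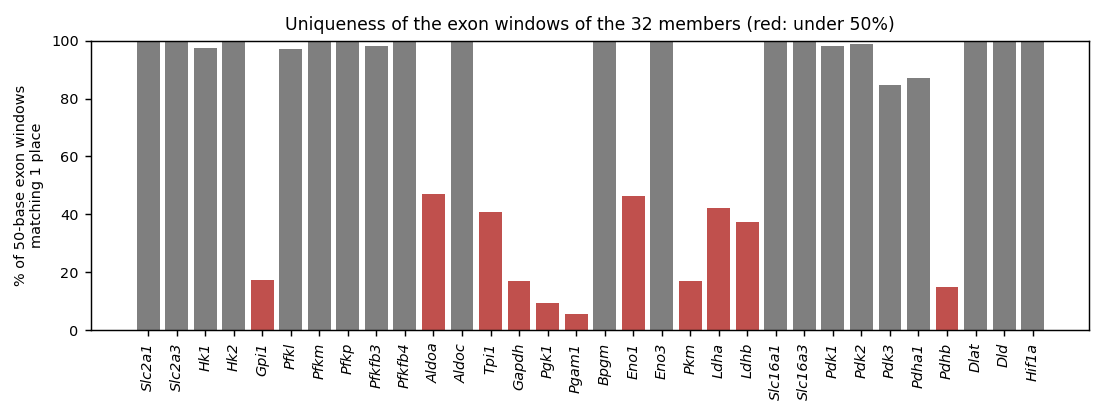
Percent of 50-base exon windows that matched 1 place in the genome (vertical axis) for the 32 genes in order of the pathway, with bars under 50% in red. The 11 red bars run from 5.63% in Pgam1 to 46.9% in Aldoa and include 4 of the 5 genes lower in unstimulated DKO cells.

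The region just before the start of transcription was taken for the 6 genes called in unstimulated cells, where 5 moved together and Pdk1 moved the other way, to show which of them hold the core letters that HIF proteins bind, ACGTG or GCGTG on either strand. The windows are the 250 bases before the start listed first for each gene in RefSeq on GRCm38.p6, on the gene's strand and from 5′ to 3′, and capitals mark those letters (CACGT and CACGC are their reverse complements).
Hk2 (chr6:82774455-82774704, minus strand): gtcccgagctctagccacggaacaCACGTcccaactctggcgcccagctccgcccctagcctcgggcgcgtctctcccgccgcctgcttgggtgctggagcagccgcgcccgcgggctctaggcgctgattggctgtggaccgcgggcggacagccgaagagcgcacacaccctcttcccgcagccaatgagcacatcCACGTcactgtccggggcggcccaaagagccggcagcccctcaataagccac
Aldoa (chr7:126800448-126800697, minus strand): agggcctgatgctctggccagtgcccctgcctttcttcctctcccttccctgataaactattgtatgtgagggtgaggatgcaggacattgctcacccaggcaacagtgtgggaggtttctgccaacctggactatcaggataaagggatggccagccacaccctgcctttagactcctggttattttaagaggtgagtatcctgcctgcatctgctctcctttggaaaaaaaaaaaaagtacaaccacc
Tpi1 (chr6:124814159-124814408, minus strand): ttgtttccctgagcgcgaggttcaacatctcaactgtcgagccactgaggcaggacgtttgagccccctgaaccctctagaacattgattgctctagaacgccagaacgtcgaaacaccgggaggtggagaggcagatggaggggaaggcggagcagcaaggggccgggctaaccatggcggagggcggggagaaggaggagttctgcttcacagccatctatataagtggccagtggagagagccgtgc
Pgk1 (chrX:106186850-106187099, plus strand): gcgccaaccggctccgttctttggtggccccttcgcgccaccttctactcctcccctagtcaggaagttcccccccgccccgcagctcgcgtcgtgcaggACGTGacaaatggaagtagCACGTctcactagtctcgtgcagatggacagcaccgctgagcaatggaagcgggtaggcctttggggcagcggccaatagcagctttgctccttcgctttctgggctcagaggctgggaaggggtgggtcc
Pkm (chr9:59656326-59656575, plus strand): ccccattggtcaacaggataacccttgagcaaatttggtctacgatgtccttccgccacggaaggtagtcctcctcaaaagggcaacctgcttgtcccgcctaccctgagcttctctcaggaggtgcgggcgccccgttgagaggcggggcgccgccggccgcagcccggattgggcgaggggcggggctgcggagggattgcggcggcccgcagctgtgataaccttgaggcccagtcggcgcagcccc
Pdk1 (chr2:71872974-71873223, plus strand): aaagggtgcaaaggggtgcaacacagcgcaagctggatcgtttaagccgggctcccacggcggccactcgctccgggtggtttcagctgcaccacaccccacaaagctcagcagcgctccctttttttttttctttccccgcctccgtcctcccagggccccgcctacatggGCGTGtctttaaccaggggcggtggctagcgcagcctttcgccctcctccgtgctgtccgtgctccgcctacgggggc
Hk2 and Pgk1 each had 2 matches, Pdk1 had 1, and these windows of Tpi1, Pkm and Aldoa had 0. Later starts of Pkm and Aldoa had 1 each. RefSeq windows were found for 31 of the 32 genes (Slc2a3 had none), 45 windows in all. ACGTG was present in 40.0% of them and in 16.6% of the 32851 windows of all genes, and GCGTG in 51.1% and 28.2%. CACGTG, which contains ACGTG, was present in 13.3% and 6.02%. GGAAA, the core letters bound by the calcium-regulated NFAT factors, was present in 51.1% and 55.6%. Some windows of 1 gene overlap, as in Aldoa and Eno1, and a match is a description of letters and not a bound site.

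Glucose enters T cells mainly through GLUT1, encoded by Slc2a1, and GLUT3, encoded by Slc2a3. Slc2a3 was at 1242 and 1253 normalized counts in the unstimulated WT libraries and at 1552 and 1402 in the DKO libraries. After stimulation, Slc2a3 was at 437 and 524 in WT and at 475 and 744 in DKO libraries. All 4 stimulated libraries lay below all 4 unstimulated ones. The log2 fold change of stimulation was -1.38 ± 0.24 (SE, limma adjusted p = 0.00380) in WT cells and -1.31 ± 0.24 (SE, limma adjusted p = 0.00417) in DKO cells. Slc2a1 was at 1381 and 1103 normalized counts in unstimulated WT, 744 and 1509 in unstimulated DKO, 856 and 908 in stimulated WT and 858 and 793 in stimulated DKO libraries. The unstimulated DKO libraries thus enclosed both WT values, and the lower of them was library 1. Neither transporter gene was called between the genotypes.

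Hexokinase traps glucose in the cell as glucose 6-phosphate; HK1 is the constitutive and HK2 the inducible enzyme. Hk2 was at 829.9 and 784 normalized counts in the unstimulated WT libraries and at 225 and 296 in the DKO libraries. Both DKO values were well below both WT values, with a log2 fold change of -1.64 ± 0.29 (SE, limma adjusted p = 0.0169). After stimulation, Hk2 was at 1053 and 1264 in WT and at 872 and 482 in DKO libraries. The DKO libraries were again the lower ones but far apart from each other, and the log2 fold change of -0.83 ± 0.29 (SE, limma adjusted p = 0.220) did not pass the test. Stimulation raised Hk2 in DKO cells by 1.32 ± 0.29 (SE, limma adjusted p = 0.00908), whereas the WT value was 0.52 (limma adjusted p = 0.216). The increase in DKO cells was not called without stimulated DKO library 1, at 0.90. Hk2 was lower in unstimulated DKO cells in all 9 alternative settings other than leaving out a library. Hk1 was at 963 and 830.2 normalized counts in unstimulated WT, 699 and 702 in unstimulated DKO, 727 and 775 in stimulated WT and 654 and 724 in stimulated DKO libraries. It varied far less than Hk2, and Hk1 was called in none of the comparisons.

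The ratio of Hk2 to Hk1 within a library does not depend on the size factor. It was 0.862 and 0.945 in unstimulated WT, 0.322 and 0.422 in unstimulated DKO, 1.45 and 1.63 in stimulated WT and 1.33 and 0.666 in stimulated DKO libraries. The genotypes did not overlap in either state, and with 2 libraries against 2 the exact 2-sided permutation test cannot go below p = 0.333. In both genotypes the stimulated libraries had higher ratios than the unstimulated ones, and stimulated DKO library 2 lay below the unstimulated WT libraries.

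Gpi1, the isomerase that follows, ranged from 1038 to 1759 normalized counts and was called in no comparison. Phosphofructokinase commits the sugar to glycolysis, and its 3 genes did not move together. Pfkl was at 446 and 365 normalized counts in unstimulated WT and at 445 and 514 in unstimulated DKO libraries. After stimulation, Pfkl was at 265 and 289 in WT and at 295 and 214 in DKO libraries. All stimulated values were below all unstimulated ones, and the log2 fold change was -0.93 ± 0.25 (SE, limma adjusted p = 0.0227) in DKO cells and -0.54 (limma adjusted p = 0.143) in WT cells. The DKO call was lost without unstimulated library 2, without stimulated library 2, at equal totals and with only the libraries compared. Pfkp, the platelet-type enzyme, was at 3030.3 and 3678 normalized counts in unstimulated WT, 1913 and 4619.7 in unstimulated DKO, 2658 and 2526 in stimulated WT and 2628 and 1577 in stimulated DKO libraries. In each state its DKO libraries were farther apart than its WT libraries. Pfkm, the muscle-type enzyme, ranged from 56.1 to 106 normalized counts and was higher in both stimulated DKO libraries (106 and 93.7) than in both stimulated WT libraries (68.6 and 61.5), without a call (limma adjusted p = 0.508). The PFKFB enzymes set the level of fructose 2,6-bisphosphate, an activator of phosphofructokinase. Pfkfb3 stayed between 591 and 811 normalized counts in all 8 libraries. Pfkfb4 was at 84.2 and 93.1 in unstimulated WT, 109 and 136 in unstimulated DKO, 20.3 and 41.8 in stimulated WT and 40.5 and 179 in stimulated DKO libraries. The 179 of stimulated DKO library 2 set its genotype difference of 1.52 ± 0.62 (SE, limma adjusted p = 0.308), which was 0.46 without that library. In WT cells Pfkfb4 changed with stimulation by -1.57 ± 0.62 (SE, limma adjusted p = 0.0931), short of the threshold.

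Aldolase splits the sugar into trioses and triose phosphate isomerase interconverts them. Aldoa was at 1181 and 843 normalized counts in the unstimulated WT libraries and at 588 and 450.1 in the DKO libraries. After stimulation, Aldoa was at 2475 and 2451 in WT and at 2285 and 1783 in DKO libraries. Genotypes did not overlap in either state, and every stimulated library exceeded every unstimulated one. The genotype difference was -0.95 ± 0.23 (SE, limma adjusted p = 0.0465) without and -0.29 (limma adjusted p = 0.642) with stimulation, and the first of these was called in only 3 of 9 alternative settings. Stimulation raised Aldoa by 1.30 ± 0.23 (SE, limma adjusted p = 0.00437) in WT cells and by 1.97 ± 0.23 (SE, limma adjusted p = 0.000658) in DKO cells. Tpi1 was at 215 and 145 normalized counts in the unstimulated WT libraries and at 61.9 and 53.4 in the DKO libraries. After stimulation, Tpi1 was at 449.7 and 391 in WT and at 330.3 and 193 in DKO libraries. It followed the order of Aldoa, except that stimulated DKO library 2 lay below unstimulated WT library 3. The genotype difference was -1.60 ± 0.33 (SE, limma adjusted p = 0.0287) in unstimulated and -0.73 (limma adjusted p = 0.370) in stimulated cells. Stimulation raised Tpi1 by 1.25 ± 0.33 (SE, limma adjusted p = 0.0231) in WT cells and by 2.12 ± 0.33 (SE, limma adjusted p = 0.00221) in DKO cells.

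Aldoc, the brain-type aldolase, was a minor transcript. It was at 85.2 and 73.9 normalized counts in unstimulated WT, 14.7 and 26.7 in unstimulated DKO, 31.2 and 50.9 in stimulated WT and 8.73 and 3.38 in stimulated DKO libraries, the last value being 4 reads. DKO libraries lay below WT libraries in both states. The genotype difference was -1.95 ± 0.60 (SE, limma adjusted p = 0.0930) without and -2.65 ± 0.60 (SE, limma adjusted p = 0.0874) with stimulation, both short of the threshold, and DESeq2 called the second. The stimulation difference of Aldoc was -0.98 ± 0.60 (SE, limma adjusted p = 0.261) in WT and -1.67 ± 0.60 (SE, limma adjusted p = 0.0644) in DKO cells, and neither passed. The ratio of Aldoc to Aldoa ranged from 0.0722 to 0.0876 in unstimulated WT and from 0.00190 to 0.00382 in stimulated DKO libraries, the highest and the lowest of the 4 groups.

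**Figure D4:**
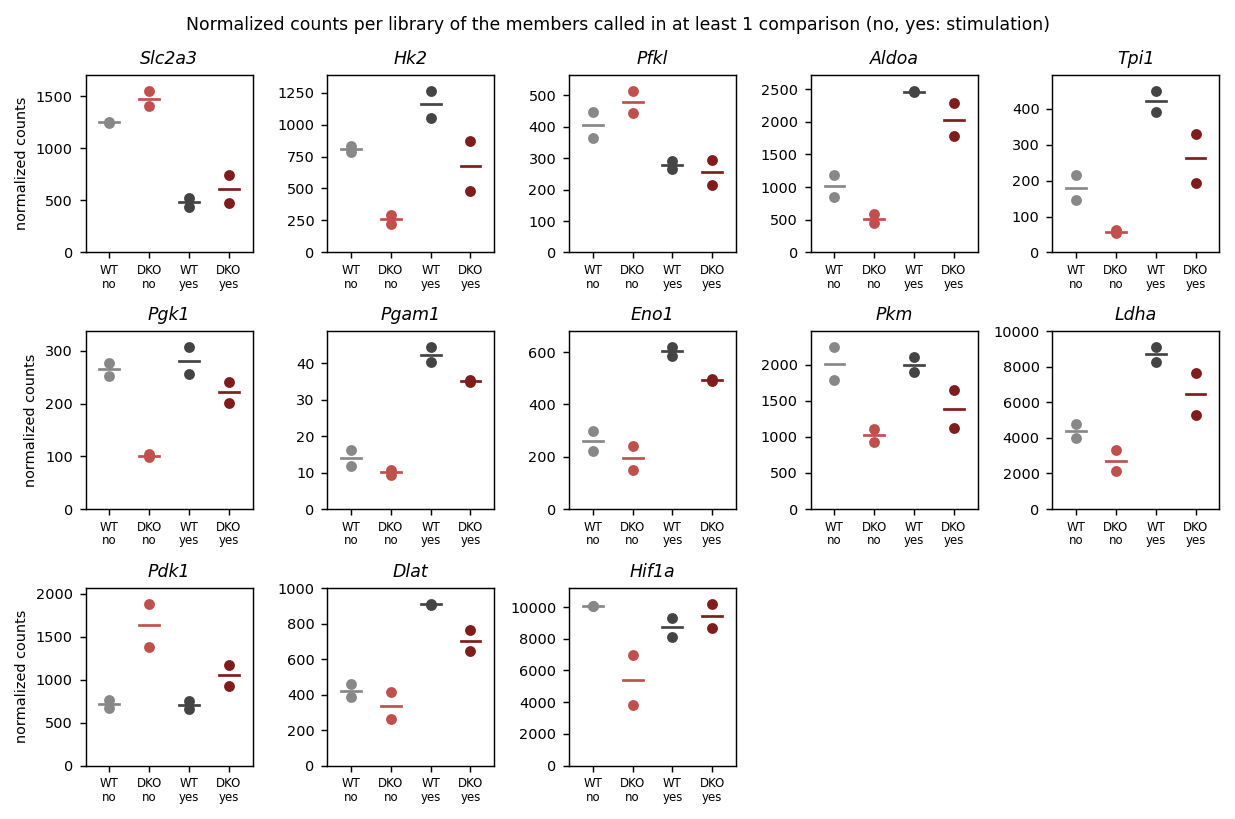
Normalized counts (vertical axis, from 0) of the 13 genes called in at least 1 comparison, with a point for each library and a line at the mean of the 2 libraries of WT and DKO cells without (no) and with (yes) stimulation. Hk2, Aldoa, Tpi1, Pgk1 and Pkm are lowest in unstimulated DKO libraries, and Pdk1 is highest there.

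Phosphoglycerate kinase makes the first ATP of the pathway. Pgk1 was at 277 and 253 normalized counts in the unstimulated WT libraries and at 104 and 98.8 in the DKO libraries. After stimulation, Pgk1 was at 307 and 256 in WT and at 241 and 202 in DKO libraries. Unstimulated DKO libraries were set apart from the other 6. The genotype difference was -1.38 ± 0.26 (SE, limma adjusted p = 0.0201) in unstimulated and -0.34 (limma adjusted p = 0.615) in stimulated cells. Stimulation raised Pgk1 by 1.12 ± 0.26 (SE, limma adjusted p = 0.0117) in DKO cells, a call lost without stimulated DKO library 1, and the WT value was 0.08 (limma adjusted p = 0.843). The interaction of 1.03 ± 0.36 had an unadjusted p of 0.0171 and did not pass (SE, limma adjusted p = 0.569).

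Pyruvate kinase makes pyruvate and ATP in the last step. Pkm was at 2245 and 1789 normalized counts in the unstimulated WT libraries and at 935 and 1109 in the DKO libraries. After stimulation, Pkm was at 1900.1 and 2107 in WT and at 1654 and 1121 in DKO libraries. DKO libraries lay below WT libraries in both states, by -0.98 ± 0.23 (SE, limma adjusted p = 0.0417) without and -0.55 ± 0.23 (SE, limma adjusted p = 0.309) with stimulation. The unstimulated call held in 5 of 9 alternative settings. Pkm was called for stimulation in neither genotype.

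Enolase acts just before pyruvate kinase. Eno1 was at 300.0 and 220.1 normalized counts in the unstimulated WT libraries and at 240.1 and 148 in the DKO libraries. After stimulation, Eno1 was at 619 and 587 in WT and at 499 and 488 in DKO libraries. The unstimulated genotypes overlapped, and all stimulated values exceeded all unstimulated ones. Stimulation raised Eno1 by 1.23 ± 0.28 (SE, limma adjusted p = 0.0124) in WT cells and by 1.38 ± 0.28 (SE, limma adjusted p = 0.00665) in DKO cells. Eno3, the muscle-type enolase, was at 487 and 414 normalized counts in unstimulated WT, 483 and 349.9 in unstimulated DKO, 383 and 656 in stimulated WT and 392 and 731 in stimulated DKO libraries. These values overlapped between all groups, and Eno3 was called in none.

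Pgam1, a phosphoglycerate mutase, was at 16.2 and 11.8 normalized counts in unstimulated WT, 9.44 and 10.7 in unstimulated DKO, 44.4 and 40.2 in stimulated WT and 34.9 and 35.5 in stimulated DKO libraries. Stimulated and unstimulated libraries were far apart at 8 to 57 reads a library. The rise was 1.71 ± 0.52 (SE, limma adjusted p = 0.0357) in DKO cells, lost without any 1 of the 4 libraries, and 1.54 ± 0.52 (SE, limma adjusted p = 0.0549) in WT cells. In alternative settings other than leaving out a library, it was called in 6 of 9 for DKO and 4 of 8 for WT cells. Bpgm makes 2,3-bisphosphoglycerate in a side branch that is best known from red cells. Its unstimulated values were 317 and 350.1 in WT and 124 and 214 in DKO libraries, a log2 fold change of -1.03 ± 0.36 (SE, limma adjusted p = 0.127), and stimulation changed it in WT cells by -0.87 ± 0.36 (SE, limma adjusted p = 0.103). Neither passed. Gapdh overlapped between the genotypes in both states.

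Lactate dehydrogenase A reduces pyruvate to lactate. Ldha was at 4777 and 4002 normalized counts in the unstimulated WT libraries and at 3316 and 2136 in the DKO libraries. After stimulation, Ldha was at 8292 and 9097 in WT and at 7672 and 5312 in DKO libraries. Genotypes did not overlap in either state, and all stimulated libraries exceeded the unstimulated ones. The genotype difference of -0.72 ± 0.25 (SE, limma adjusted p = 0.125) in unstimulated cells did not pass; without DKO library 1 it was -1.03 and was called, and without DKO library 2 it was -0.40 (adjusted p = 0.294). Stimulation raised Ldha by 0.99 ± 0.25 (SE, limma adjusted p = 0.0177) in WT cells and by 1.26 ± 0.25 (SE, limma adjusted p = 0.00586) in DKO cells. Ldhb, which favours the return of lactate to pyruvate, was at 209 and 168 normalized counts in unstimulated WT, 107 and 129.6 in unstimulated DKO, 94.3 and 133 in stimulated WT and 109.6 and 133 in stimulated DKO libraries. Unstimulated WT libraries were above the other 6. Its stimulation difference in WT cells was -0.74 ± 0.31 (SE, limma adjusted p = 0.114). The ratio of Ldhb to Ldha was 0.0438 and 0.0421 in unstimulated and 0.0114 and 0.0146 in stimulated WT libraries, and 0.0323 and 0.0607 in unstimulated and 0.0143 and 0.0251 in stimulated DKO libraries. It was lower after stimulation in both genotypes.

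Lactate leaves through MCT1, encoded by Slc16a1, and MCT4, encoded by Slc16a3. Slc16a1 was at 810.4 and 684 normalized counts in unstimulated WT, 295 and 554 in unstimulated DKO, 1168 and 1115 in stimulated WT and 1018 and 542 in stimulated DKO libraries. DKO libraries were below WT libraries in both states, at -0.88 ± 0.34 (SE, limma adjusted p = 0.168) without stimulation, and this difference was -0.43 without DKO library 1 and -1.33 without DKO library 2, where it was called (adjusted p = 0.0431). In DKO cells Slc16a1 changed with stimulation by 0.88 ± 0.34 (SE, limma adjusted p = 0.0864), with values of 0.42 to 1.33 when 1 library was left out and a call without unstimulated or stimulated library 2. Slc16a3 was at 203 and 196 normalized counts in unstimulated WT, 34.6 and 155 in unstimulated DKO, 79.5 and 114 in stimulated WT and 53.2 and 53.2 in stimulated DKO libraries. DKO libraries were again the lower ones in both states. The unstimulated difference of -1.43 ± 0.57 (SE, limma adjusted p = 0.179) was set by DKO library 1, as it was -0.36 without that library and -2.49 without DKO library 2, where it was called (adjusted p = 0.0123). Neither transporter passed with all 8 libraries in the fit, other than Slc16a1 for stimulation of both genotypes at equal totals.

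Pyruvate dehydrogenase kinases phosphorylate and inactivate the complex that takes pyruvate into the citric acid cycle. Pdk1 was at 768 and 665 normalized counts in the unstimulated WT libraries and at 1884 and 1386 in the DKO libraries. After stimulation, Pdk1 was at 661 and 748 in WT and at 923 and 1176 in DKO libraries. DKO libraries lay above WT libraries in both states. By contrast, the log2 fold change was below 0 in 25 of the 32 genes without and 20 with stimulation. The Pdk1 difference was 1.18 ± 0.22 (SE, limma adjusted p = 0.0209) without and 0.57 ± 0.22 (SE, limma adjusted p = 0.284) with stimulation. In DKO cells Pdk1 changed with stimulation by -0.63 ± 0.22 (SE, limma adjusted p = 0.0616), while the WT value was -0.02. Pdk3 was at 300.0 and 334 normalized counts in unstimulated WT, 149.9 and 260.4 in unstimulated DKO, 349.9 and 309.8 in stimulated WT and 339.9 and 241 in stimulated DKO libraries. It lay lower in the unstimulated DKO libraries without a call (limma adjusted p = 0.232). The ratio of Pdk1 to Pdk3 was 2.56 and 1.99 in unstimulated WT, 12.6 and 5.32 in unstimulated DKO, 1.89 and 2.41 in stimulated WT and 2.72 and 4.87 in stimulated DKO libraries. It was higher in both DKO libraries in each state. Pdk2 was at 76.6 and 54.7 normalized counts in unstimulated WT, 66.1 and 45.4 in unstimulated DKO, 44.4 and 3.80 in stimulated WT and 50.03 and 39.7 in stimulated DKO libraries. The value of 3.80 was 5 reads, and it set the WT stimulation difference of -2.15 ± 0.85 (SE, limma adjusted p = 0.0910), which was -0.53 without that library.

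The complex itself is built from PDHA1 and PDHB, DLAT and DLD. Dlat, the acetyltransferase core, was at 459.7 and 384 normalized counts in the unstimulated WT libraries and at 412 and 262 in the DKO libraries. After stimulation, Dlat was at 913 and 908 in WT and at 762 and 644 in DKO libraries. All stimulated libraries exceeded all unstimulated ones. Stimulation raised Dlat by 1.11 ± 0.25 (SE, limma adjusted p = 0.0122) in WT cells and by 1.09 ± 0.25 (SE, limma adjusted p = 0.0119) in DKO cells. The other subunit genes did not pass in any comparison: Pdha1 ranged from 1288 to 1909 normalized counts, Pdhb from 753 to 994 and Dld from 1477 to 2158. Pdha1 had an unadjusted p of 0.0331 for stimulation in WT cells, with a log2 fold change of -0.49 ± 0.20 (SE, limma adjusted p = 0.1004) that was 0.03 at equal totals. Of the 4 subunit genes, Dlat alone was called.

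**Figure D5:**
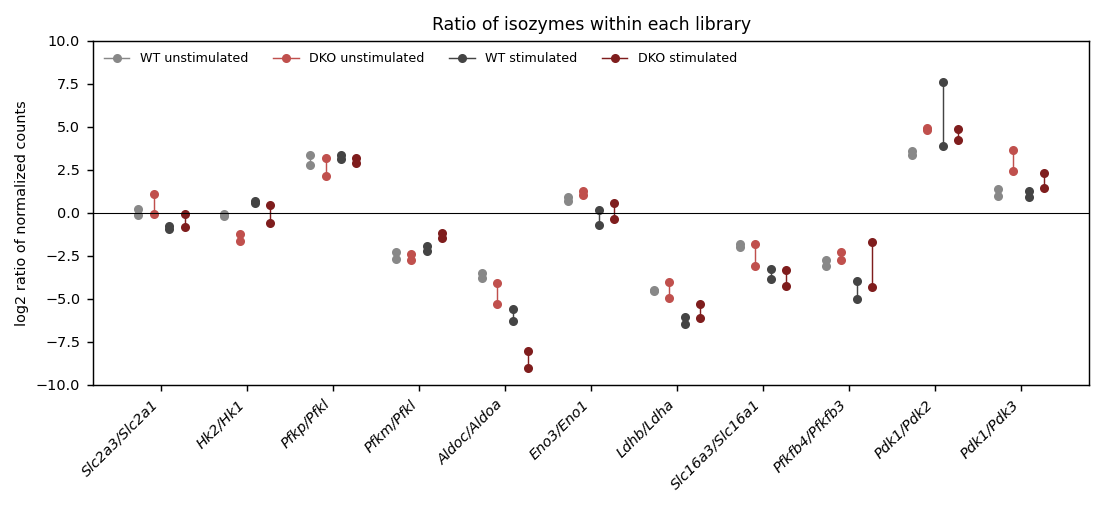
Log2 ratio of normalized counts of 2 isozymes within each library (vertical axis), with the 2 libraries of a group joined by a line, for 11 pairs. Hk2/Hk1 is lowest in unstimulated DKO libraries, Pdk1/Pdk3 is highest there, and Aldoc/Aldoa is lowest in stimulated DKO libraries.

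Hif1a was at 10071 and 10086 normalized counts in the unstimulated WT libraries and at 3838 and 6970.2 in the DKO libraries. After stimulation, Hif1a was at 9314 and 8124 in WT and at 10206 and 8708 in DKO libraries. Only the unstimulated DKO libraries were apart from the rest, and the lower one was library 1. The unstimulated genotype difference of -0.96 ± 0.25 (SE, limma adjusted p = 0.0608) missed the threshold, and was -1.39 without DKO library 2, where it was called (adjusted p = 0.00281), and -0.53 without DKO library 1. It was also called with DESeq2 (adjusted p = 0.0190) and among genes with a mean of at least 100 (limma adjusted p = 0.0490). In DKO cells Hif1a rose with stimulation by 0.87 ± 0.25 (SE, limma adjusted p = 0.0315), a call lost without 3 of the 4 libraries, at 0.44 without unstimulated library 1. In stimulated cells the genotype difference was 0.12 (limma adjusted p = 0.890).

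Levels can be compared between genes only per length, which was done for the 19 genes with over 90% of windows at 1 place, in normalized counts per 1000 such windows. In unstimulated WT cells Hif1a had 2161, Dld 1384 and Pfkp 1026. Among isozymes, Slc2a1 had 549 and Slc2a3 340, Pfkl had 157 and Pfkm 39.1, Hk1 had 188 and Hk2 162, and Pdk1 had 157 and Pdk2 38.9. In unstimulated DKO cells, Hk2 had 52.3 against 147 for Hk1, and Pdk1 had 359. In stimulated WT cells Hk2, at 232, was above Hk1, at 158, while Slc2a3, at 131, was below Slc2a1, at 389. The 32 genes together took 0.294% ± 0.0126 (SD, n = 2) of the reads outside mitochondrially encoded genes in unstimulated WT, 0.223% ± 0.00362 in unstimulated DKO, 0.404% ± 0.000467 in stimulated WT and 0.352% ± 0.0565 in stimulated DKO libraries. The 4 lactate genes took 0.0439% ± 0.00511, 0.0282% ± 0.00850, 0.102% ± 0.00483 and 0.0735% ± 0.0211 in the same order. Hif1a alone took 0.0801% ± 0.000487 in unstimulated WT and 0.0435% ± 0.0120 in unstimulated DKO libraries. Without it, the other 31 genes took 0.214% ± 0.0131 and 0.179% ± 0.00839. The 2 stimulated genotypes differed in the share of all 32 genes by less than the spread of the DKO libraries.

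Of 60 further genes of neighbouring reactions and control, 48 were tested. In unstimulated cells 3 of the 48 (6.25%) were lower in DKO cells and 1 (2.08%) was higher, where 3.35% and 1.38% of all genes were. Txnip, an inhibitor of glucose uptake, was at 2446 and 2223 normalized counts in WT and at 4628 and 5792 in DKO libraries, a log2 fold change of 1.15 ± 0.24 (SE, limma adjusted p = 0.0287). The lower ones were Tkt, a transketolase of the pentose phosphate pathway (-1.10, limma adjusted p = 0.0310), Mdh1, the cytosolic malate dehydrogenase (-1.05, limma adjusted p = 0.0353), and Egln3, an oxygen sensor that marks HIF for degradation (-1.64, limma adjusted p = 0.0369). The 7 pentose phosphate genes all had log2 fold changes below 0, also at equal totals and equal upper quartiles, with a median of -0.47 that was -0.35 and -0.30 under those scalings. Tkt was not called at equal totals, and Tkt and Egln3 were not called at equal upper quartiles. After stimulation limma and edgeR called 0 of the 48 between the genotypes and DESeq2 called 1, Galm, while 1 was lower and 3 were higher at an unadjusted p under 0.05 with over 1.5-fold in limma. For the interaction limma, edgeR and DESeq2 called 0 of the 48, with 4 positive at that unadjusted p in limma. With stimulation 7 of the 48 (14.6%) fell and 4 (8.33%) rose in WT cells, near the 13.1% and 10.2% of all genes, and 5 (10.4%) fell and 6 (12.5%) rose in DKO cells, near the 12.0% and 13.0% of all genes. Txnip fell in both, by 1.34 ± 0.24 in WT and by 1.88 ± 0.24 in DKO cells on the log2 scale (SE, limma adjusted p = 0.00438 and 0.000874). Tkt, Pgd and Pgls of the pentose phosphate pathway and the transporter gene Slc2a6 rose in both, and Hk3, Arnt, Bnip3l and Vegfa fell in both, where at equal totals Hk3 lost its call in both and Arnt and Vegfa lost theirs in DKO cells.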

How the data were processed

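The labels gave the genotype and stimulation of each of the 8 RNA-seq libraries. The methods state alignment of single 50-base reads to NCBIM37 with Bowtie, uniquely mapped reads, removal of duplicates, HTSeq counting and DESeq2; the submitters' processing notes list mm10, STAR 2.7, bcl2fastq 1.8.4 and DESeq2. Which of these made the table is not settled here, so no coordinates are given for its genes. The deposited signal is a table of normalized counts, made by the authors by scaling each library's gene counts with a size factor and rounding to 2 decimals. Whole reads were recovered from 100.0% of values (tolerance 0.0051 normalized counts), 11851853 to 16306540 reads per library. Labels name a stranded kit, and use of strand in the counting is not given in the sources used here.

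Values were fitted as log2(normalized count + 1) with limma 3.58.1 (trend) in R 4.3.3, in 1 model of 4 groups, over 15419 genes with a mean of at least 10. Tests were 2-sided with Benjamini-Hochberg adjustment over all genes tested. Alternatives were pseudocounts of 0.1 and 5, every gene above 0, a mean of at least 100, equal totals, equal upper quartiles, edgeR 4.0.16 and DESeq2 1.42.0 on recovered reads, only the libraries compared, a replicate block and each library left out. On simulated data for the unstimulated genotype contrast, with 200 of 15419 genes changed 4-fold, limma recovered 198 among 209 calls. The simulation gave every gene the same dispersion, changed only genes with higher counts and held no admixed library. It checks that the fit runs correctly and does not measure sensitivity in these data. The 32 genes and the other lists were chosen with earlier results of these data known. Values per library are given for genes called in any comparison and for isozymes of a step with a called gene, and fold changes with SE for genes called or with an unadjusted p under 0.05. Exon windows came from protein-coding transcripts of 22 chromosomes of NCBIM37 (GENCODE vM1), and promoters from RefSeq on GRCm38.p6. The lists of platelet, neutrophil, erythroid, and CD8 T and NK cell markers summed to at most 65.0, 735, 301 and 802 normalized counts. Without stimulation, neutrophil markers summed to 136 and 93.1 in WT and 735 and 342 in DKO libraries. Erythroid markers were at 57.2 and 97.5 against 301 and 123. After stimulation, neutrophil markers were at 414 and 226 in WT and 641 and 143 in DKO libraries. CD8 T and NK cell markers were then at 370 and 202 against 802 and 245. Erythroid markers were then lower in both DKO libraries. The part of these differences in the results was not tested.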

Additional observations from a re-analysis of the deposited data

Results flagged for a closer look

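Hif1a was marked because stimulation went with opposite directions in the 2 genotypes: both stimulated WT libraries lay below both unstimulated WT libraries, and both stimulated DKO libraries lay above both unstimulated DKO libraries. Of all genes tested, 36.0% lay below in this way in WT cells and 30.8% above in DKO cells. The WT change of Hif1a was small, at -0.21 ± 0.25 (SE, limma adjusted p = 0.579), and was not called. The interaction was 1.08 on the log2 scale with an unadjusted p of 0.0129 and a limma adjusted p of 0.556, so the difference did not pass the test. It was 0.65 without unstimulated DKO library 1, which had the highest sum of macrophage markers, and 1.51 without unstimulated DKO library 2. Groups of 2 libraries were too small to look for single outlying values.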

How the results depend on the processing

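Between the unstimulated genotypes, genes called went from 730 to 362 with every gene above 0, 484 with edgeR, 1338 with DESeq2 and 338 with only the libraries compared. The called glycolytic genes went from 6 to 3 with every gene above 0 and to 1 with only the libraries compared. The median of all 32 genes went from -0.37 to -0.21 at equal upper quartiles. With stimulation, genes called between genotypes went from 42 to 8 and 74 with pseudocounts of 0.1 and 5, 1 with every gene above 0, 82 with a mean of at least 100, 1 with edgeR, 550 with DESeq2 and 1 with only the libraries compared, and DESeq2 called 1 of the 32. For stimulation of WT cells, called members went from 6 to 10 at equal totals and 11 with only the libraries compared, and the median from -0.09 to 0.43 at equal totals. For DKO cells, the median went from 0.11 to 0.50 at equal totals, and only the libraries compared gave 1752 genes in place of 3852 and 5 of the 32 in place of 11. The interaction median went from 0.27 to 0.14 at equal totals and 0.11 at equal upper quartiles, and DESeq2 called 50 genes. Pdha1 turned from -0.49 to 0.033 for stimulation of WT cells at equal totals. The causes were not tested. For single genes, 375 of the other values kept direction and call, 14 gained and 24 lost a call.

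Leaving out 1 library at a time, the unstimulated genotype comparison gave 8 to 1298 genes, 0 to 7 of the 32 and medians of -0.51 to -0.24; the stimulated one 0 to 762, 0 to 3 and -0.24 to -0.05. Stimulation of WT cells gave 971 to 1262 genes, 1 to 3 of the 32 and -0.19 to 0.02, and of DKO cells 2599 to 4229, 7 to 12 and 0.02 to 0.21. The interaction gave 0 to 196 genes, 0 to 1 of the 32 and 0.14 to 0.46.

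Replicate numbers 1 and 2 are shared by 3 groups, and same-numbered deviations correlated at 0.114, 0.257 and 0.167 over 15419 genes, with 2 numbers only, so the samples share a number and no stated pairing. With a replicate block, 496 genes were called between stimulated genotypes, and 1 of the 32, Aldoc; for stimulation of DKO cells it called the same 11 of the 32. Depth limited Aldoc, Pdk2 and Pgam1, with at least 4, 5 and 8 reads in a library.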
